A study of Mus musculus with 4 samples.

Results

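The expression of 10 genes of the NRF2 and glutathione defence against oxidants was examined in brown adipose tissue: Nqo1, Hmox1, Gclc, Gclm, Gpx4, Txnrd1, Srxn1, Gsta4, Gstm1 and Cat. They were taken by gene symbol out of 52022 genes whose transcripts were summed. All 10 had enough counts to be tested. The libraries are from brown adipose tissue of male mice fed ad libitum on a 60% high fat diet for 12 weeks, a diet that all groups shared. The KO group (2 libraries) lacked ATF4 in thermogenic adipocytes, the heat-producing fat cells, and the WT group (2 libraries) had their wild-type counterparts. How the deletion was made, which promoter drove it, and how old the mice were is not stated by the sources used here, nor is it said whether each library came from a separate animal. The p-values therefore measure only the spread between these libraries, which may be technical. The library names begin with S1 (KO 1 and WT 2) or S2 (KO 2 and WT 1), a prefix whose meaning is not given.

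NRF2 is a transcription factor that is held in the cytoplasm and marked for destruction by KEAP1. When reactive molecules modify KEAP1, NRF2 accumulates, pairs with a small MAF protein and binds antioxidant response elements near genes of detoxification and glutathione metabolism. ATF4, which is raised in the integrated stress response, feeds the same pathway through amino acid supply, since cysteine and glycine are building blocks of glutathione. Brown fat mitochondria burn fatty acids for heat and produce peroxides as they do so.

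No member of the panel differed between genotypes beyond the spread between libraries. Of the 10 genes, 0 were called at an adjusted p under 0.05 by the edgeR quasi-likelihood test with Benjamini-Hochberg adjustment, against 0.78% of the 15643 genes tested (0.767% higher in KO and 0.0128% lower). None reached an unadjusted p under 0.05 either, against 4.02% of all genes. DESeq2 and limma-voom also called 0 of the 10, where they called 1.39% and 0.818% of all genes. In all 10 genes the values of the 2 genotypes overlapped, while 26.3% of all genes tested had no overlap. The median log2 fold change (KO over WT) of the panel was 0.02, beside 0.00 for all genes tested, and the median size of the change was 0.06, beside 0.15. Of the 10, 7 had a log2 fold change under 0.1 in size, as did 35.9% of all genes tested. Small changes were not particular to the panel. In 9 related lists, given below, 54.9% of the 113 genes tested were under 0.1, with a median size of 0.09. The share was 70% for the regulators of NRF2 and 76.9% for the other peroxide and superoxide enzymes, but 20% for the heme and iron genes.

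The libraries held between 25985367 and 34813870 estimated counts. Atf4, the targeted gene, stood at 29.2 CPM (counts scaled to a common library size) in the library labelled WT 1 and at 107 CPM in WT 2, against 24.97 CPM in KO 1 and 24.5 CPM in KO 2. The library labelled WT 1 thus lay close to the KO libraries for this gene. The log2 fold change of Atf4 was -1.46 (SE 0.57, edgeR adjusted p = 0.9998, or 0.174 with the prefix as a block). The main fit therefore did not call the targeted gene itself, which limits what a count of 0 called genes can show. The exons removed are not known, so the total over the gene may not show the whole deletion. All 11 brown adipocyte markers were detected, with a summed level of 15262 to 16256 CPM in WT and 14694 to 18229 CPM in KO. The main fit called 0 of these 11, of which 7 had a log2 fold change above 0 and 4 below. The sum hides a decrease of Dio2, whose CPM values were 112.7 (WT 1), 80.9 (WT 2), 36.9 (KO 1) and 68.8 (KO 2). With the prefix as a block, Dio2 alone among the 11 was called, lower in KO (log2 fold change -0.92, edgeR adjusted p = 0.0132). The 10 skeletal muscle fibre markers summed to 1.75 and 1.61 CPM in WT but to 2801 and 2627 CPM in KO, and all 10 were called higher in KO. Myh4 and Pvalb among them had 0 counts in some libraries. The 7 fibroblast markers summed to 709 and 1033 CPM in WT 1 and WT 2 but to 419 and 640 CPM in the KO libraries. None of these 7 was called by edgeR, 3 had an unadjusted p under 0.05, and with the prefix as a block 1, Dpt, was called lower in KO (adjusted p = 0.0404). The part of muscle and fibroblast RNA in the values of the panel was not tested. Without the library labelled WT 1, again 0 of the 10 genes were called, against 1.2% of all genes, and the median log2 fold change was 0.03, with the remaining WT library assumed to vary like the others. In bulk tissue, fewer cells of a type and less RNA per cell cannot be told apart.

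Promoter sequences are shown first, because the genes are grouped by a shared regulator whose binding element has a known core. The RefSeq promoter table (GRCm38.p6, 250 bases before to 50 bases after each start) held 7 of the 10 genes, all but Hmox1, Gclc and Gsta4. The core of the antioxidant response element, TGACNNNGC on either strand, was found in 3 of the 7, against 14% of the 27025 genes in the table. For each element searched, a gene counted if any of its windows matched. The 7 genes had 13 windows, more per gene than the table as a whole, which had 32851 windows. Shares per gene are therefore not like for like. Per window, 12.4% of the table held the core. It began 134 bases before the start in Gclm, 92 bases before it in Txnrd1 and 29 bases after it in Srxn1. A second element, TGACTCA, is bound by AP-1 and overlaps the longer element that small MAF proteins bind. A TGACTCA followed by GC would match both searches. TGACTCA was present in 1 of the 7, Srxn1, at 102 and at 45 bases before the start, against 5.95% of genes. The composite element of C/EBP and ATF4, searched as TGATGNAA on both strands, was in 0 of the 7 and in 4.51% of all genes. These are matches of letters, not measured binding. The stretches below run 5′ to 3′ on the strand of the gene, with the matched letters in capitals. Gclm (chr3:122245377-122245476, plus strand) and Txnrd1 (chr10:82859068-82859167, plus strand) carry the response element core on the opposite strand. Srxn1 (chr2:152105404-152105503, plus strand) carries the pair of TGACTCA matches, also on the opposite strand.
Gclm: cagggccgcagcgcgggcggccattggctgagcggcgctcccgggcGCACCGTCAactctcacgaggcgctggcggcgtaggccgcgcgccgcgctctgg
Txnrd1: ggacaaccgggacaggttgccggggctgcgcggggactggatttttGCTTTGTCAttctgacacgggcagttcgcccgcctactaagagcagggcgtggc
Srxn1: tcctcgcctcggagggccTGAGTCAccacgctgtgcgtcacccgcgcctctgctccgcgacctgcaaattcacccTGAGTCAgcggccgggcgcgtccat

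The levels of the panel spanned more than 3 orders of magnitude when set per transcript length. On the TPM scale (abundance divided by transcript length and scaled to a common total), Gpx4 was first, with 1907 TPM in WT 1, 1780 TPM in WT 2, 1904 TPM in KO 1 and 1727 TPM in KO 2. Cat followed at 224 to 332 TPM over the 4 libraries, Gstm1 at 151 to 161 TPM and Gsta4 at 40.7 to 50.5 TPM. No library of one of these 4 genes reached the range of the next. The middle of the order was not resolved. Srxn1 (18.8 to 23.4 TPM), Txnrd1 (13.9 to 23.1 TPM), Gclm (13.3 to 20.02 TPM) and Hmox1 (7.29 to 21.5 TPM) each overlapped their neighbour. Gclc (3.04 to 4.65 TPM) and Nqo1 (0.656 to 1.45 TPM) lay below all of these and apart from each other.

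**Figure D1:**
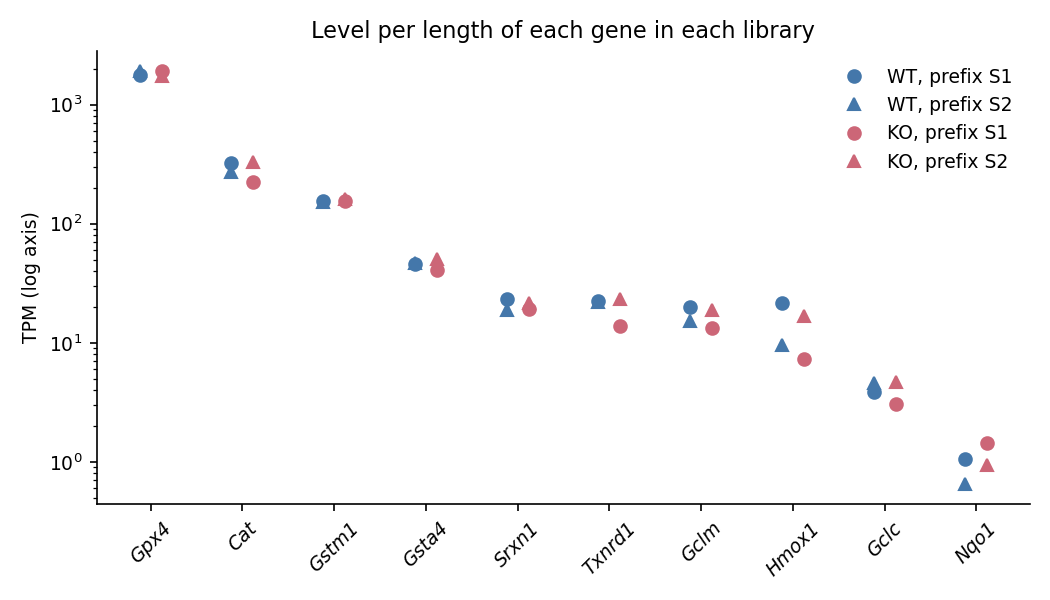
TPM of each gene in each library on a log axis, genes in order of their mean, WT in blue and KO in red, circles for prefix S1 and triangles for prefix S2. Gpx4 sits near 1830 TPM and Nqo1 near 1.03 TPM, and the 4 genes from Srxn1 to Hmox1 overlap their neighbours.

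Glutamate-cysteine ligase, the first and rate-limiting enzyme of glutathione synthesis, is built from the products of a pair of genes. Gclc (ENSMUSG00000032350, chromosome 9, 77754535 to 77794485) encodes the catalytic subunit, and its level was 14.3 CPM in WT 1, 12.1 CPM in WT 2, 11.3 CPM in KO 1 and 15.2 CPM in KO 2. The KO libraries held both the lowest and the highest value. The log2 fold change was 0.01 (SE 0.21, 95% interval -0.52 to 0.54, edgeR adjusted p = 0.9998). Gclm (ENSMUSG00000028124, chromosome 3, 122245557 to 122270732) encodes the modifier subunit, which makes the ligase more efficient. It measured 15.6 CPM in WT 1, 17.5 CPM in WT 2, 15.5 CPM in KO 1 and 16.8 CPM in KO 2, so the genotypes interleaved. Gclm had the smallest spread of the panel, with a coefficient of variation (SD over mean) of 5.84% over the 4 libraries. Its log2 fold change was -0.03 (SE 0.17, 95% interval -0.44 to 0.37). The ratio of Gclc to Gclm TPM was 0.304 and 0.194 for WT 1 and WT 2, and 0.228 and 0.246 for KO 1 and KO 2. Both KO ratios lay between the WT ratios. These ratios count all transcripts, and 19.8 to 49.9% of the Gclm TPM was not protein-coding. In protein-coding transcripts only, Gclc was at 4.23, 3.88, 3.04 and 4.65 TPM in WT 1, WT 2, KO 1 and KO 2. Gclm was at 10.2, 10.03, 10.7 and 14.6 TPM in the same order. On that basis Gclc was lower relative to Gclm in both KO libraries than in either WT library, which was not tested. In KO 2 that order rests on Gclm-207, a protein-coding transcript of 292 bases. Gclm-207 was at 3.75 TPM on 10.3 estimated counts in KO 2 and at 0 TPM in WT 1, WT 2 and KO 1. Without it KO 2 would not lie below the WT libraries.

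Among the enzymes that spend glutathione, Gpx4 was the most abundant gene of the panel. Gpx4 (ENSMUSG00000075706, chromosome 10, 80047166 to 80056439) encodes the selenium-containing glutathione peroxidase that reduces lipid peroxides in membranes and restrains ferroptosis. Its level was 1108 CPM in WT 1, 910 CPM in WT 2, 1076 CPM in KO 1 and 987 CPM in KO 2. Both KO values lay between the WT values. The log2 fold change was 0.03 (SE 0.23), and its 95% interval on the fold scale ran from 0.686 to 1.53. Reads of Gpx4 can also fit processed pseudogene copies, so its count is less certain than its depth implies.

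The 2 transferases, which join glutathione to reactive molecules, were steady in their summed counts. The transcript makeup of Gstm1 differed in KO 1, as given below. Gsta4 (ENSMUSG00000032348, chromosome 9, 78182774 to 78209349), whose enzyme prefers the lipid peroxidation product 4-hydroxynonenal, stood at 36.96 CPM in WT 1, 33.9 CPM in WT 2, 36.1 CPM in KO 1 and 39.2 CPM in KO 2. KO 2 was highest and WT 2 lowest, and KO 1 lay between the WT values. It differed by a log2 fold change of 0.09 (SE 0.17), with 0.09 within each of the 2 prefixes. Gstm1 (ENSMUSG00000058135, chromosome 3, 108012255 to 108017973), a mu-class transferase, measured 142.5 CPM in WT 1, 133.8 CPM in WT 2, 133.9 CPM in KO 1 and 151.9 CPM in KO 2. KO 1 and WT 2 were nearly equal. The log2 fold change was 0.05 (SE 0.18, 95% interval -0.39 to 0.49). Gstm1 has close paralogs in a cluster on the same chromosome, so reads may have been split between them.

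Of the genes of the thioredoxin and sulfiredoxin systems, Txnrd1 showed the wider spread. Txnrd1 (ENSMUSG00000020250, chromosome 10, 82833951 to 82897712) encodes the cytosolic selenoenzyme that keeps thioredoxin reduced. It stood at 71.9 CPM in WT 1, 67.5 CPM in WT 2, 49.7 CPM in KO 1 and 73.5 CPM in KO 2. KO 1 alone was low, and KO 2 exceeded both WT libraries. The log2 fold change was -0.18 (SE 0.23, 95% interval -0.75 to 0.40), and it ranged from -0.49 to 0.08 when each library was left out in turn. Srxn1 (ENSMUSG00000032802, chromosome 2, 152105516 to 152111376) encodes sulfiredoxin, which repairs over-oxidised peroxiredoxins. It measured 50.6 CPM in WT 1, 58.6 CPM in WT 2, 57.9 CPM in KO 1 and 56.7 CPM in KO 2. The 2 KO libraries both lay within the WT range. The log2 fold change was 0.07 (SE 0.17), and the 95% interval of the fold ran from 0.780 to 1.41.

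Cat (ENSMUSG00000027187, chromosome 2, 103453849 to 103485160) encodes catalase, the peroxisomal enzyme that breaks hydrogen peroxide into water and oxygen. Its level was 681 CPM in WT 1, 754 CPM in WT 2, 623 CPM in KO 1 and 814 CPM in KO 2. The KO libraries lay on either side of both WT libraries. The group means were 718 ± 51.2 CPM in WT and 718 ± 135 CPM in KO (SD, n = 2 each), and the log2 fold change was 0.00 (SE 0.24, 95% interval -0.59 to 0.59).

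The 2 genes with the widest spread were the classical inducible enzymes. Hmox1 (ENSMUSG00000005413, chromosome 8, 75093621 to 75100589) encodes heme oxygenase 1, which cleaves heme to biliverdin, iron and carbon monoxide and is repressed by BACH1. It stood at 13.5 CPM in WT 1, 27.8 CPM in WT 2, 11.5 CPM in KO 1 and 23.3 CPM in KO 2. In each genotype 1 library was high and 1 was low. Within prefix S1 the KO library had 0.416 times the level of the WT library, and within S2 it had 1.72 times the level. The fit over all 4 libraries gave a log2 fold change of -0.25 (SE 0.45, 95% interval -1.36 to 0.87, edgeR adjusted p = 0.9998), and leaving out each library in turn gave -0.85 to 0.37. Macrophages, which express Hmox1 strongly when they clear red cells, were unevenly represented among the libraries. The 13 macrophage markers summed to 406 CPM in WT 1, 278 CPM in WT 2, 108 CPM in KO 1 and 338 CPM in KO 2, with Marco and Vsig4 at 0 counts in some libraries. All 10 of them that were tested had a log2 fold change below 0, and 0 were called. With the prefix as a block their median was -0.67 and again 0 were called. In that edgeR fit 8 of the 10 had an unadjusted p under 0.05, against 8.88% of all genes. The 7 erythroid markers summed to 1131 CPM in WT 1, 1070 CPM in WT 2, 2028 CPM in KO 1 and 908 CPM in KO 2. KO 1 was lowest for Hmox1 and for macrophage markers and highest for erythroid markers. WT 1 had the highest macrophage sum and the second-lowest Hmox1 level, and WT 2 had the highest Hmox1 level with a lower macrophage sum. The part of these cells in the Hmox1 values was not tested.

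Nqo1 (ENSMUSG00000003849, chromosome 8, 107388225 to 107403206), the quinone reductase often used as a readout of NRF2, was barely expressed. It measured 0.924 CPM in WT 1, 1.39 CPM in WT 2, 2.27 CPM in KO 1 and 1.30 CPM in KO 2, on 29, 51, 58 and 38 estimated counts. KO 1 was highest, and KO 2 lay between the WT libraries. The log2 fold change was 0.62 (SE 0.43, 95% interval -0.46 to 1.69, edgeR adjusted p = 0.9998). Within each prefix the KO library was the higher, by 0.68 in S1 and 0.47 in S2. With the prefix as a block the log2 fold change was 0.61 (SE 0.35, adjusted p = 0.763 by edgeR, where all alternatives gave an adjusted p of 0.483 to 1.00).

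**Figure D2:**
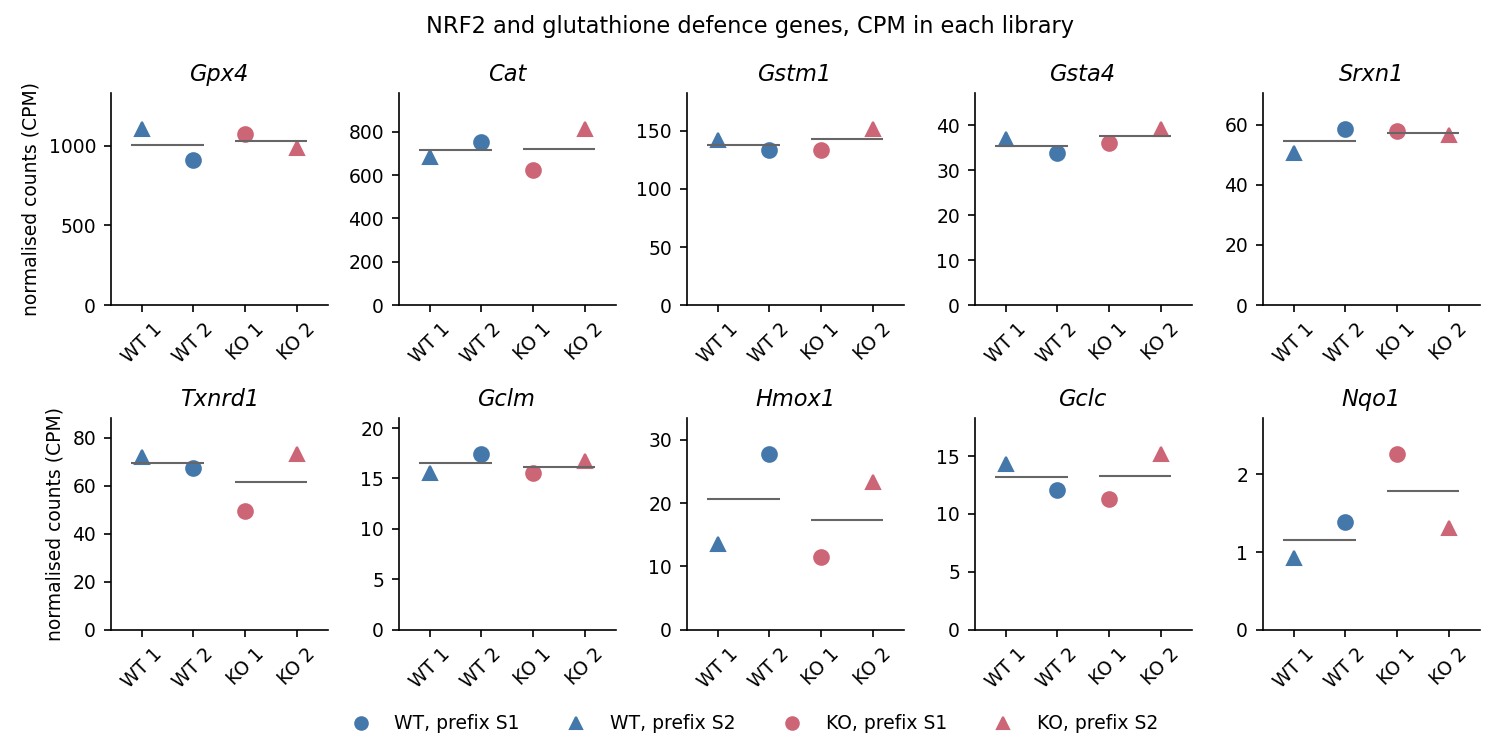
Normalised counts (CPM, axis from 0) of each gene in each of the 4 libraries, with the group mean as a line, WT in blue and KO in red, circles for prefix S1 and triangles for S2. The genotypes overlap in all 10 panels, and Hmox1 and Nqo1 show the largest gaps between libraries of 1 genotype.

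For 8 of the 10 genes the 95% interval of the fold lay within 2-fold in both directions, as it did for 9584 of the 15643 genes tested. The exceptions in the panel were Nqo1, whose interval reached 3.23-fold higher, and Hmox1, whose interval reached down to 0.389 of the WT level. The median coefficient of variation over the 4 libraries was 10.2% for the panel, beside 17.0% for all genes tested and 13.6% for the 113 genes tested in the related lists.

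Comparing KO with WT within each prefix gave opposite directions for most of the panel. Each prefix holds 1 library per genotype, so these differences have no test. Within S1 the KO library was lower for 6 of the 10 genes, beside 50.8% of all genes tested, and the median log2 difference was -0.05. Within S2 it was higher for 9 of the 10, beside 49.7% of all genes, with a median of 0.10. The same 6 genes that were lower in S1 were higher in S2: Hmox1, Gclc, Gclm, Txnrd1, Srxn1 and Cat. Gpx4 went the other way, by 0.24 in S1 and by -0.17 in S2. In all, 7 of the 10 changed sign between the prefixes, beside 48.1% of all genes tested. Nqo1, Gsta4 and Gstm1 were higher in KO in both, Gstm1 by 0.00 in S1. The median size of the difference was 0.21 in S1 and 0.13 in S2, beside 0.24 and 0.18 for all genes. KO 1 held the lowest value of 5 genes (Hmox1, Gclc, Gclm, Txnrd1 and Cat), and KO 2 held the highest of 5 (Gclc, Txnrd1, Gsta4, Gstm1 and Cat) and the lowest of none.

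**Figure D3:**
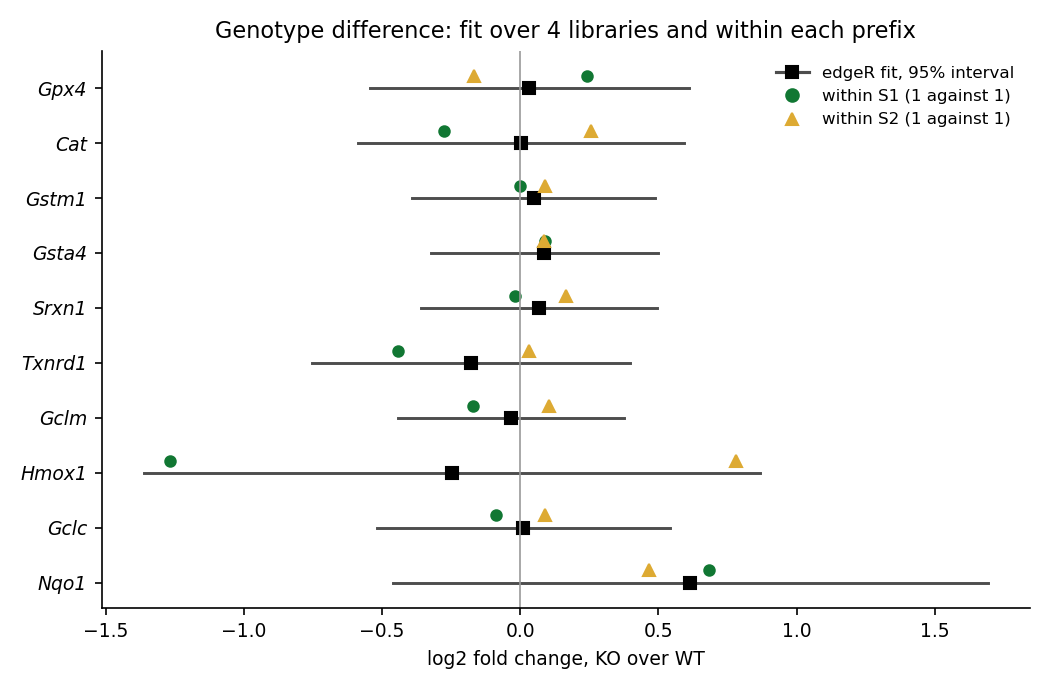
Log2 fold change of KO over WT for each gene: squares are the edgeR fit over 4 libraries with its 95% interval, circles the S1 difference and triangles the S2 difference. Every interval crosses 0, and the circle and triangle lie on opposite sides of 0 for 7 of the 10 genes, most widely for Hmox1 (-1.27 and 0.78).

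Over all genes tested, the prefix separated more genes (53.2%) than genotype did (26.3%), and the share in the panel (60%) was near that for prefix. By variance the order was the reverse. In a principal component analysis, which finds the axes of largest variance, the first axis (58.0%) divided the libraries by genotype. The second axis (30.1%) divided them by prefix. The S1 and S2 libraries did not overlap for 6 of the 10 genes, beside 53.2% of all genes tested. Gclc, Txnrd1, Gsta4 and Gstm1 were above S1 in both S2 libraries, and Nqo1 and Srxn1 were below. In the fit with genotype and prefix, 0 of the 10 were called for prefix (edgeR adjusted p under 0.05), against 3.14% of all genes tested. The largest differences of S2 over S1 were -0.69 for Nqo1 (adjusted p = 0.305) and 0.33 for Gclc (adjusted p = 0.273) by the edgeR quasi-likelihood test. With the prefix as a block, 0 of the 10 were called for genotype, against 2.05% of all genes. The macrophage markers also followed the prefix, with 5 of the 10 tested called higher in S2. Of the 8 endothelial markers, 7 did not overlap between prefixes, with Cldn5 called higher in S2 and Kdr and Emcn called lower. The part of these cells in the prefix values was not tested.

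The estimated counts are split over annotated transcripts, and for some genes a library differed in the makeup more than in the total. Gstm1-204, a processed transcript with no coding sequence, made up 24.7% and 27.3% of the Gstm1 TPM in the WT libraries, 46.9% in KO 1 and 20.2% in KO 2. KO 1 stood apart. The TPM of the protein-coding transcripts of Gstm1 was 114 in both WT libraries, 82.3 in KO 1 and 128 in KO 2. Gpx4-203, a transcript with a retained intron, made up 19.6% and 23.6% of the Gpx4 TPM in the WT libraries, 31.5% in KO 1 and 17.3% in KO 2, so KO 1 was again highest and KO 2 lowest. The main coding transcript, Gpx4-202, was at 948, 798, 823 and 811 TPM in WT 1, WT 2, KO 1 and KO 2. For Gclm the order differed, with the retained-intron transcript Gclm-205 at 32.9% (WT 1), 49.9% (WT 2), 19.8% (KO 1) and 22.9% (KO 2) of the gene TPM. Both KO shares of Gclm-205 were below both WT shares, on 23.1 to 105 estimated counts. Gclm overlaps Gm6061, a pseudogene on its own strand, and Gm17494 on the opposite strand.

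Across all nuclear protein-coding genes, retained-intron transcripts held 8.41% of the TPM (WT 1), 9.58% (WT 2), 10.2% (KO 1) and 8.68% (KO 2). Processed transcripts held 8.46%, 8.94%, 10.3% and 8.42% in the same order. KO 1 was highest on both measures, and their part in the Gstm1 and Gpx4 makeup was not tested. Txnrd1 was read almost wholly as Txnrd1-201 (88.4 to 96.2% of its TPM), and Cat and Nqo1 as 1 transcript each.

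**Figure D4:**
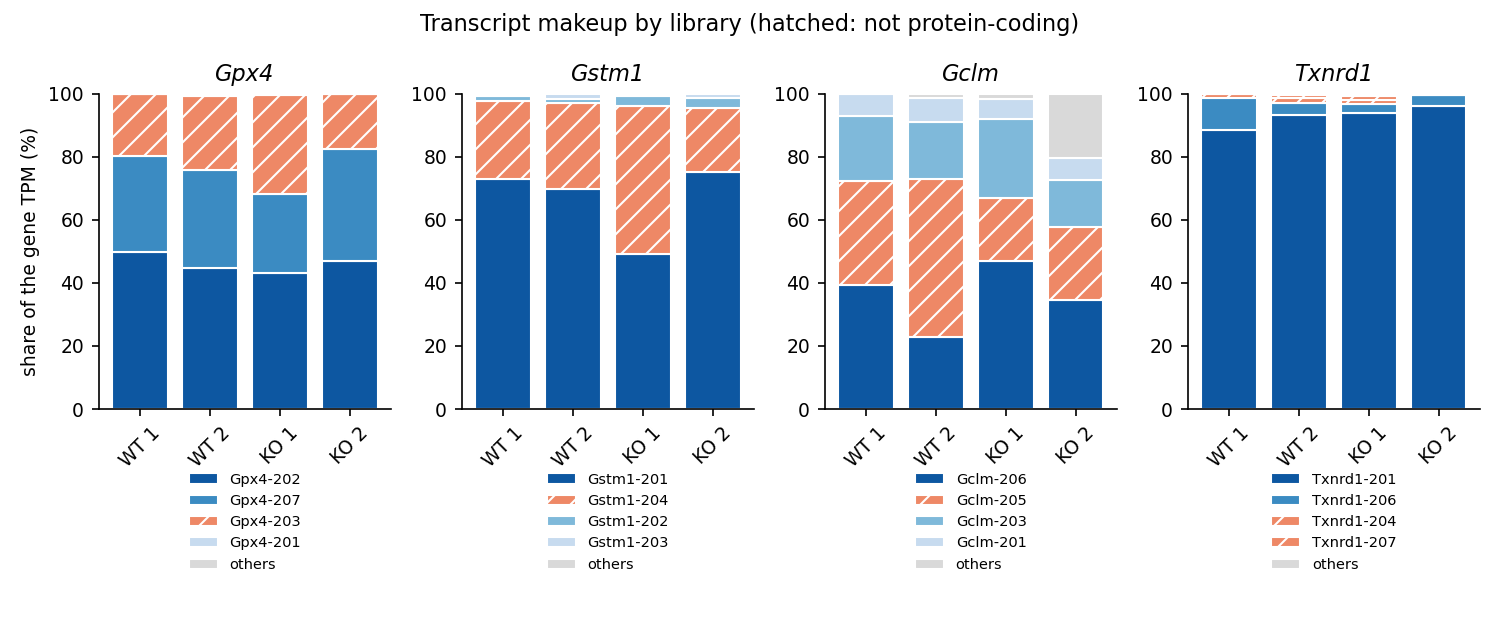
Share of the gene TPM (%) held by the most abundant transcripts of Gpx4, Gstm1, Gclm and Txnrd1 in each library. Hatched parts are transcripts that are not protein-coding, and the remaining transcripts of any class are pooled in grey without hatching. KO 1 has the largest hatched share of Gpx4 (31.5%) and Gstm1 (46.9%), and WT 2 has the largest of Gclm (49.9%).

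The regulators of NRF2 did not pass the test either. All 10 were measured well enough to test, 0 were called between genotypes, and their median log2 fold change was 0.03. Nfe2l2, the gene of NRF2 itself, stood at 50.9 CPM in WT 1, 54.3 CPM in WT 2, 44.7 CPM in KO 1 and 55.1 CPM in KO 2. Its log2 fold change was -0.07 (SE 0.19). Keap1, the repressor, measured 39.2, 38.5, 40.8 and 38.4 CPM in the same order, and Bach1, which competes with NRF2 for its elements, 15.5, 17.1, 14.4 and 18.8 CPM. Their log2 fold changes were both 0.03 (SE 0.16 and 0.20). Maff, a small MAF partner, had the smallest p of these regulators, with 4.72 CPM in WT 1, 4.16 CPM in WT 2, 3.44 CPM in KO 1 and 8.57 CPM in KO 2. KO 2 alone was high. Sqstm1, which encodes the autophagy adaptor p62 that sequesters KEAP1, had the same shape at 147, 139, 127 and 211 CPM. All 10 regulators had opposite signs in the 2 prefixes, beside 48.1% of all genes, with a median of -0.19 in S1 and 0.17 in S2.

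Around the panel, 119 further genes in 9 lists covered regulators, other NRF2-linked genes, glutathione metabolism, other transferases, other peroxide and superoxide enzymes, the thioredoxin system, selenoprotein synthesis, heme and iron handling, and ferroptosis lipid genes. Of these, 113 were tested, 0 were called between genotypes (0.78% of all genes) and 1 had an unadjusted p under 0.05 (4.02% of all genes), with a median log2 fold change of -0.03. That gene was Abcc1, an exporter of glutathione conjugates. It stood at 46.1 CPM in WT 1, 46.5 CPM in WT 2, 33.1 CPM in KO 1 and 35.4 CPM in KO 2. The WT and KO values of Abcc1 did not overlap, as in 15 of the 113 genes (26.3% of all genes tested). The difference was -0.49 in S1 and -0.38 in S2. The edgeR log2 fold change of Abcc1 was -0.44 (SE 0.16, unadjusted p = 0.0388, adjusted p = 0.9998). Nor was it called with the prefix as a block. The summed fibroblast markers given above were likewise lower in both KO libraries (6 of the 7 markers singly), and their part in the Abcc1 values was not tested. Ggt1, Gsta1, Gsta2, Gstm3, Gpx2 and Alox15 had 0 to 3 estimated counts per library and were not tested.

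Of the other NRF2-linked genes (20 of 20 tested, median -0.05), G6pdx, the source of NADPH for glutathione recycling, measured 209 CPM in WT 1, 182 CPM in WT 2, 132 CPM in KO 1 and 217 CPM in KO 2. KO 1 was low, as it was for Txnrd1. Slc7a11, the cystine transporter, was at 0.510 CPM in WT 1, 0.517 CPM in WT 2, 0.664 CPM in KO 1 and 0.274 CPM in KO 2, on 8 to 19 estimated counts. It was chosen after its values were seen, as a textbook target of both NRF2 and ATF4. Its promoter window held 2 matches to the composite element of C/EBP and ATF4, in capitals below (chr3:50443617-50443716, minus strand).
Slc7a11: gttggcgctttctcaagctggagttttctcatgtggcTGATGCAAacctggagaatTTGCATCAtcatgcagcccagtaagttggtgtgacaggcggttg

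Of the genes of glutathione synthesis, recycling and breakdown (14 of 15 tested, median -0.04), Gss, glutathione synthetase, measured 46.04 CPM in WT 1, 39.8 CPM in WT 2, 34.9 CPM in KO 1 and 40.7 CPM in KO 2. KO 1 was lowest and KO 2 lay between the WT libraries. Chac1, a glutathione-degrading enzyme and ATF4 target, was scarce at 0.605, 1.71, 1.76 and 1.37 CPM in the same order, and its 2 KO values straddled WT 2. Its log2 fold change was 0.42 (SE 0.55). Of the heme and iron genes (10 of 10 tested, median -0.14), Slc11a2, an iron importer, measured 50.6 CPM in WT 1, 49.95 CPM in WT 2, 56.2 CPM in KO 1 and 77.2 CPM in KO 2. Both KO libraries were above both WT libraries, with a log2 fold change of 0.41 (SE 0.21). Cp, the ferroxidase ceruloplasmin, measured 15.1 CPM in WT 1, 21.0 CPM in WT 2, 13.4 CPM in KO 1 and 13.9 CPM in KO 2, so both KO libraries were the lower. Neither passed the test. Of the 10 heme and iron genes, 3 did not overlap between genotypes, beside 26.3% of all genes tested.

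The remaining lists had medians near 0: -0.06 for the other transferases (18 of 21 tested), -0.01 for the peroxide and superoxide enzymes (13 of 14), -0.00 for the thioredoxin system (11 of 11), -0.01 for selenoprotein synthesis (9 of 9) and 0.01 for the ferroptosis lipid genes (8 of 9). Sod1, the cytosolic superoxide dismutase, was at 245, 249, 329 and 214 CPM in WT 1, WT 2, KO 1 and KO 2, so the KO libraries lay on either side of WT. Gpx1, the cytosolic glutathione peroxidase, was at 365, 261, 295 and 288 CPM, with both KO libraries inside the WT range. Sesn2, a sestrin that ATF4 and NRF2 both induce, was at 39.8, 20.9, 24.4 and 24.8 CPM. WT 1 alone was high.

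The prefix term was called for 4 of the 113 genes tested (3.54%), close to the 3.14% of all genes. Osgin1, an NRF2-linked gene, stood at 12.4 CPM in WT 1 and 8.02 CPM in KO 2 but at 1.99 CPM in WT 2 and 2.23 CPM in KO 1, a log2 difference of S2 over S1 of 2.26 (edgeR adjusted p = 0.00266). Gsta3, an alpha-class transferase, had the same division at 10.2 and 8.95 CPM against 1.96 and 2.58 CPM (2.09, edgeR adjusted p = 0.00266). Gstt1 was higher in S2 by 0.78 (edgeR adjusted p = 0.0413). Gstt2 was higher in S1, at 23.8 CPM in WT 2 and 37.0 CPM in KO 1 against 12.6 CPM in WT 1 and 10.5 CPM in KO 2 (-1.36, edgeR adjusted p = 0.00871). These 4 genes were named after their values were seen. The Osgin1 promoter window held 1 TGACTCA match, in capitals below (chr8:119437003-119437102, plus strand), shown because this NRF2-linked gene had the largest prefix difference.
Osgin1: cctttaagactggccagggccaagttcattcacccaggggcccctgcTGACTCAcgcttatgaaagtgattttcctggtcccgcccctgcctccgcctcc

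**Figure D5:**
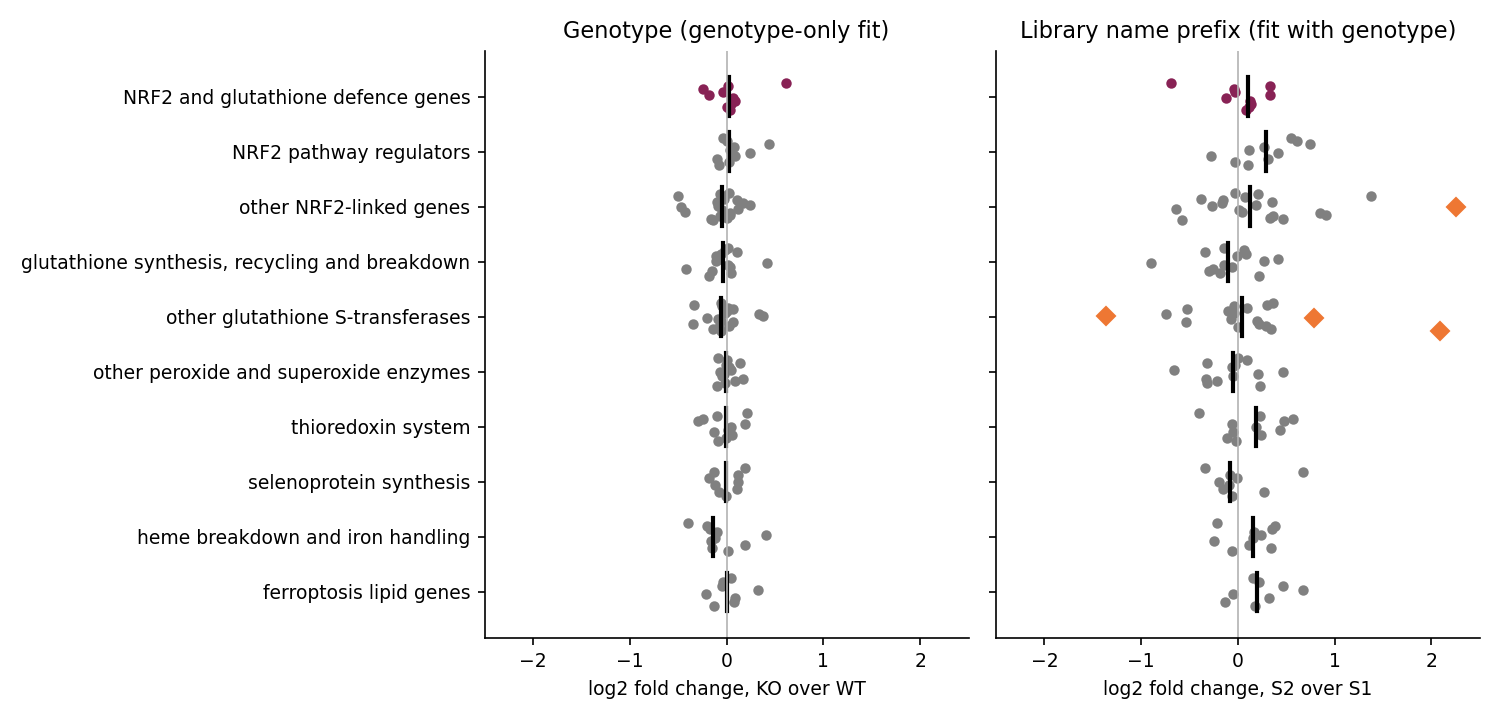
Log2 fold change of each tested gene in the panel (top row) and in 9 further lists, for KO over WT on the left and for S2 over S1 on the right, with the list median as a black bar and genes called at an adjusted p under 0.05 as orange diamonds. No diamond appears for genotype and 4 appear for prefix: Osgin1, Gsta3, Gstt1 and Gstt2.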

How the data were processed

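Libraries came from TRIzol- and RNeasy-purified RNA and the Illumina TruSeq stranded mRNA kit, per the labels' protocols. The submitters' processing notes name kallisto 0.45.0 and the build mm10. The transcript set and the strand setting are not given in the sources that were used. The authors deposited, per the file headers, an estimated count and a TPM value per transcript. kallisto splits reads that fit several transcripts, so near-identical copies are uncertain. Of 141450 transcripts, 138191 (97.7%) matched GENCODE vM21 (GRCm38), and the unmatched ones held 0.992 to 1.04% of the counts and entered neither library sizes nor tests.

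Counts of a gene's transcripts were added up, rounded and tested with the quasi-likelihood test of edgeR 4.0.16 (R 4.3.3, TMM scaling, filterByExpr with a minimum count of 10 and total of 15, genotype as the sole term), with Benjamini-Hochberg adjustment over all 15643 genes tested. Within-prefix differences are of log2 CPM with a prior count of 2. Each SE was derived from the fold change and the F value. Alternatives, tried 1 at a time, were no filter, DESeq2 size factors, at least 1 CPM in 2 libraries, a block for replicate or for prefix, each library left out, DESeq2 1.42.0, limma-voom (limma 3.58.1), limma on log2(TPM + 1) and log2(TPM + 0.1), and no mitochondrial genes. Protein-coding transcripts only was added after seeing the data, as were the searches for TGACTCA and TGATGNAA. The fitting code was tested on simulated data.

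The members and lists were chosen with earlier results of these data known. Named genes are the 10 members, Nfe2l2, Keap1 and Bach1, and, from every other list, up to 4 genes of lowest p. The text says where a gene was named for another reason. Cell type markers were 7 lists. Summed over its markers, the endothelial list measured 791, 1035, 1347 and 873 CPM in WT 1, WT 2, KO 1 and KO 2 and the hepatocyte list 5.93, 23.0, 28.8 and 6.44 CPM.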

Additional observations from a re-analysis of the deposited data

How the results depend on the processing

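None of the 10 genes was called under any of the 15 alternatives, which called 0.499% to 2.05% of all genes tested, and the lowest adjusted p over them was 0.456 (Txnrd1). Over all genes, 122 were called, against 457 with no filter, 320 with the prefix as a block, 218 by DESeq2 and 78 to 205 with 1 library left out (187 without WT 1, 205 without WT 2 and 78 without KO 2). The median log2 fold change of the panel ranged from -0.071 to 0.14 with 1 library left out, 0.14 being the value without KO 1. On log2(TPM + 0.1) the median of all genes moved from 0.00 to -0.11, and that of the panel to -0.08. Of the other lists, 0 to 1 genes were called with 1 library left out, the 1 being Abhd4 without KO 2 (log2 fold change -2.86, edgeR adjusted p = 0.0287). Abhd4, named after its values were seen, stood at 48.8 and 59.0 CPM in WT 1 and WT 2, 7.42 CPM in KO 1 and 68.8 CPM in KO 2.

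Directions near 0 turned under some alternatives, and the cause was not tested. On log2(TPM + 1) and log2(TPM + 0.1) the changes were -0.13 and -0.16 for Gclc, -0.023 and -0.023 for Gpx4, -0.036 and -0.038 for Srxn1, -0.028 and -0.029 for Gsta4, and -0.12 and -0.12 for Cat. With protein-coding transcripts only they were 0.089 for Gclm and -0.017 for Gstm1. Cat was at -0.011 by limma-voom and -0.00088 without mitochondrial genes. With 1 library left out the changes ran from -0.85 to 0.37 for Hmox1, -0.22 to 0.21 for Gclc, -0.11 to 0.051 for Gclm, -0.10 to 0.18 for Gpx4, -0.49 to 0.076 for Txnrd1, -0.034 to 0.18 for Srxn1, -0.047 to 0.14 for Gstm1 and -0.21 to 0.18 for Cat. Nqo1 (0.17 to 0.96) and Gsta4 (0.023 to 0.15) kept their sign.

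The replicate block left 164 genes called over all genes and 0 of the panel, with Cat at -0.0096. Libraries with the same replicate number deviated in opposite ways (correlation -0.38). With 2 libraries per group, this is the correlation for the same prefix (0.38) with its sign turned. It therefore cannot show whether the number stands for a pairing. The crossed pairing, which is the prefix block, called 320 genes and 0 of the panel, with Cat at -0.0096. Nqo1 rested on 29 to 58 counts per library, the fewest of the panel.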
